A study of Mus musculus with 2 samples.

Results

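The genes described here encode 5 families that cut or protect the material around cells: the matrix metalloproteases (MMPs), the ADAM proteins, the ADAMTS proteases, the ADAMTS-like proteins and the tissue inhibitors of metalloproteases (TIMPs). They were chosen by symbol alone (Mmp, Adam or Adamts with a number, Adamtsl or Timp with a digit), which gave 83 of 20373 listed genes: 23 MMPs, 32 ADAMs, 19 ADAMTS genes, 5 ADAMTS-like genes and 4 TIMPs. RNA was sequenced from mouse cortex at embryonic day 15.5, with 1 library of neural progenitor cells (NPCs) and 1 of neurons. The embryos came from a cross of heterozygous Nestin-GFP with homozygous DCX-mRFP mice, and both libraries came from embryos that carried both reporters. By flow sorting, green cells were taken for NPCs and cells showing both colours for neurons. How many embryos were pooled is not given in the sources used here.

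As background, MMPs and ADAMTS proteases are zinc enzymes that cleave collagens, proteoglycans and other matrix proteins, and they are made as inactive precursors. ADAMs sit in the cell membrane. The active ones release the outer parts of neighbouring membrane proteins, a step called shedding that precedes gamma-secretase cleavage of Notch, while others have lost the catalytic site and serve as receptors. TIMPs bind the active site of these enzymes and block it. In the developing cortex such proteolysis bears on Notch signalling between progenitors, on the processing of reelin and adhesion molecules of neurons, and on the basement membranes of vessels and meninges.

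Levels are given in CPM, counts per 1000000 on a scale shared by both libraries, where 1 CPM is about 27.0 reads in the NPC and 22.8 reads in the neuron library. The libraries held 26346226 and 23312054 reads on listed genes. With 1 library per cell type there is no replicate check, no test and no p-value. Intervals beside folds are exact 95% Clopper-Pearson counting intervals, which cover the counting error of reads only. Without molecular identifiers reads cannot be counted as separate molecules, so the intervals can be too narrow. In sorted bulk RNA, fewer cells of a type and less RNA per cell cannot be told apart. Defining markers followed the labels. All 8 radial glia markers were at least 2-fold higher in the NPC library. All 8 excitatory neuron markers were higher in the neuron library, 2 of them at least 2-fold. Radial glia markers summed to 1711 CPM in the NPC and 617.8 CPM in the neuron library, and excitatory neuron markers to 6250 and 9932 CPM. Dcx itself was at 2522 and 3294 CPM. Both libraries thus held many transcripts of either type, and folds between them are not folds between pure cell types. Markers of other cells also differed. The summed level of 10 pericyte and mural markers was 204.0 CPM in the NPC and 14.4 CPM in the neuron library. Of these, 8 were higher in NPCs, 7 of them at least 2-fold. Acta2 (1.89 and 2.11 CPM) and Tagln (1.78 and 1.84 CPM) were near level and slightly higher in neurons. For 5 oligodendrocyte precursor markers the sums were 76.8 and 2.81 CPM, with all 5 at least 2-fold higher in NPCs. For 10 endothelial markers the sums were 22.6 and 3.38 CPM, with 7 at least 2-fold higher in NPCs. Slco1a4 had 1 read in the NPC and 0 in the neuron library, so it tells nothing of a difference. For 7 meningeal fibroblast markers the sums were 2.71 and 0.353 CPM. The order was opposite for 12 microglia and macrophage markers, whose sums were 33.8 and 146.0 CPM, with 11 at least 2-fold higher in neurons.

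Of the 83 genes, 40 reached 1 CPM in one or both libraries, 21 had reads but stayed below that level, and 22 had no read in either library. Among the 40, with 1 CPM added to each value, 5 were at least 2-fold higher in NPCs, or 12.5%, against 6.73% of all genes at this level. These were Mmp9, Adamts6, Timp3, Adamts9 and Adamts12. Another 3, or 7.5%, were at least 2-fold higher in neurons, against 3.85% of all genes: Mmp17, Adamts2 and Adamts3. The other 32 lay within 2-fold. The 40 genes divided evenly, with 20 higher in each library, and the median of their log2 ratios (neuron over NPC) was -0.03, next to -0.0049 over all 12693 genes at that level. Counting intervals of the fold lay wholly above 1 for 17 genes higher in NPCs (34.6% of all genes) and 16 higher in neurons (33.6% of all genes), and 7 genes were not distinguishable from equal at this depth. Exons of Adam17, Adamts7, Adamts9, Mmp19 and Mmp24 overlap a gene on the opposite strand in the annotation, so part of their reads could belong to it. All folds of single genes below are ratios of CPM without the added value.

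**Figure D1:**
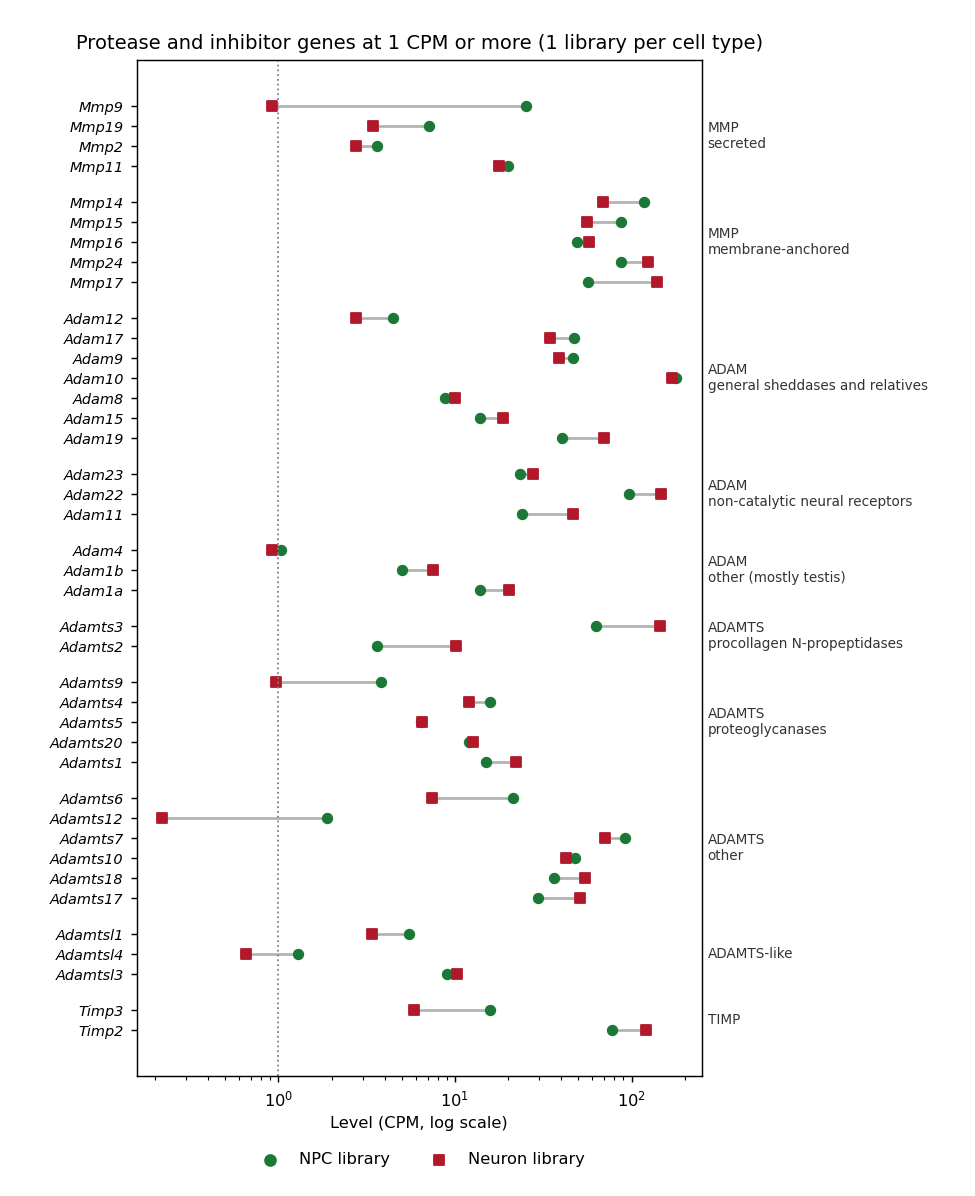
Level of each of the 40 genes in the NPC library (green circles) and the neuron library (red squares), in CPM on a log axis, grouped by role. The pair of points of a gene can be compared, not the levels of different genes, which are not corrected for transcript length; the widest gap is that of Mmp9, at 25.4 and 0.922 CPM.

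Among the secreted MMPs, Mmp9 stood far apart. Mmp9 encodes gelatinase B, which degrades denatured collagen and the collagen of basement membranes. It had 685 NPC reads and 21 neuron reads, or 25.4 and 0.922 CPM, and was 27.5-fold higher in NPCs (interval 17.9 to 44.8). Its log2 ratio of -3.78 with 1 CPM added ranked 8 from the NPC end among the 12693 genes at this level. The genes of rank 1 to 7, looked up after this rank was seen, were Nid1, Pdgfrb, Abcc9, Cspg4, Igf2, Pdgfra and Vtn. Nid1 is a basement membrane protein, Pdgfrb, Abcc9 and Vtn stand in the pericyte list, and Cspg4 and Pdgfra in the oligodendrocyte precursor list. Pdgfrb was at 54.0 and 2.33 CPM and Pdgfra at 25.3 and 0.703 CPM. The part of these cells in the Mmp9 difference was not tested. Macrophages can also make Mmp9, and their part, with markers at the summed levels given above, was not tested either.

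The other secreted MMPs differed less. Mmp2, the related gelatinase A, had 3.63 CPM in NPCs and 2.77 CPM in neurons, a difference that was not detectable at this depth (1.31-fold toward NPCs, interval 0.948 to 1.83). Mmp19 was at 7.16 and 3.42 CPM (2.09-fold toward NPCs, interval 1.60 to 2.75), which falls below 2-fold once 1 CPM is added. Mmp11, a furin-activated enzyme also called stromelysin 3, was at 19.9 and 17.8 CPM (1.12-fold, 0.983 to 1.28), again within counting error. Mmp28 was read 10 times in the NPC library and not at all in the neuron library, which puts it at least 2.81-fold higher in NPCs against a floor of 3 reads; with the counting error of the 10 reads included, the interval of the ratio starts at 1.89. Exons of Mmp28 overlap 1700020L24Rik on the opposite strand in the annotation (0.185 CPM in NPCs and 0 in neurons), so part of the Mmp28 reads could belong to it. Mmp21 had 2 reads and 1 read.

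The remaining 10 secreted MMPs were silent, and they form a single block of the genome. Mmp13, Mmp12, Mmp1b, Mmp3, Mmp1a, Mmp10, Mmp8, Mmp27, Mmp20 and Mmp7 follow one another with no other protein-coding gene between them in RefSeq's order (GRCm38.p6), and they hold the collagenases, stromelysins and matrilysin that are known for their induction in inflamed and remodelling tissue. All 10 had 0 reads in both libraries, which allows at most 3 reads, or 0.111 CPM in NPCs and 0.132 CPM in neurons. Reads of the related genes Mmp1a and Mmp1b could also have been lost in alignment where their sequences match. No other run of adjacent genes from these families was longer than 5, and 20.9% of all listed genes had 0 reads in both libraries.

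Many start-site windows of this silent block share sequence features, and 3 of the 7 that carry both motifs searched are shown as examples. The windows come from RefSeq (GRCm38.p6) and span 250 bases before to 50 bases after a gene's start. Capitals mark TGACTCA, the binding motif of AP-1 factors such as Fos and Jun, and TATAAA, the core of the TATA box, on either strand (TGAGTCA and TTTATA in reverse); the letters of the 2 motifs cannot overlap. All 3 lie on the plus strand, Mmp3 at chr9:7445572-7445871, Mmp13 at chr9:7272264-7272563 and Mmp10 at chr9:7502092-7502391.
Mmp3: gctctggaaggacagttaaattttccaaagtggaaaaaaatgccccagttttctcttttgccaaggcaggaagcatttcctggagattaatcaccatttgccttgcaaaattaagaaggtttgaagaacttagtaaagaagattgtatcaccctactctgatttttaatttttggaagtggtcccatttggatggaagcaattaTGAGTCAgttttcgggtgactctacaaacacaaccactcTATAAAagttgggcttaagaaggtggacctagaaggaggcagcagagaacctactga
Mmp13: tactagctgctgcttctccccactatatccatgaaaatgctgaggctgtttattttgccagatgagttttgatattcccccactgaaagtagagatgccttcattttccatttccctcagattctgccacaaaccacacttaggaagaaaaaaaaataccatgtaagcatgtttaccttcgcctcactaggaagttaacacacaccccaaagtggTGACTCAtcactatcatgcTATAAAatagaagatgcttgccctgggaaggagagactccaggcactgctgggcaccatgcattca
Mmp10: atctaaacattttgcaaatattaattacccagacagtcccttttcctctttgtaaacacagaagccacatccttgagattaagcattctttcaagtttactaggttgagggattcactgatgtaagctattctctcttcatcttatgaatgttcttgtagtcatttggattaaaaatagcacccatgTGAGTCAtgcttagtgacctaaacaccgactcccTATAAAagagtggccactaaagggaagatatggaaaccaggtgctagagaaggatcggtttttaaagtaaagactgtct
In each the AP-1 motif lay upstream of the TATA motif, with first bases at -46 and -7 from the annotated start in Mmp3, at -35 and -16 in Mmp13, and at -63 and -29 in Mmp10. Over the 12 windows of the 10 silent genes, 7 held TGACTCA (58.3%), 9 held TATAAA (75.0%) and 7 held both (58.3%). Over all 32851 RefSeq windows the shares were 5.20%, 13.6% and 0.941%. Of the 3241 windows of genes with 0 reads in both libraries 8.21%, 30.3% and 2.72% did, in the same order. The 12 windows belong to adjacent genes of 1 family, so they are not 12 separate cases. A match is a string of letters and not a measured binding site.

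The windows of 2 genes at 1 CPM or more are shown beside those of the silent block: Mmp14, a membrane MMP higher in NPCs (plus strand, chr14:54431348-54431647), and Adamts3, which was higher in neurons (minus strand, chr5:89883285-89883584). Neither motif was found in either window, so both are printed without capitals.
Mmp14: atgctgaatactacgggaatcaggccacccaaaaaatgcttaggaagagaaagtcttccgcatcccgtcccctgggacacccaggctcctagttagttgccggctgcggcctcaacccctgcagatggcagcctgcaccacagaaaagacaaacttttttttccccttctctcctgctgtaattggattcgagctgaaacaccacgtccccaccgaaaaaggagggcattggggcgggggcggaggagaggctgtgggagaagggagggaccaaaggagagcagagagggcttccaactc
Adamts3: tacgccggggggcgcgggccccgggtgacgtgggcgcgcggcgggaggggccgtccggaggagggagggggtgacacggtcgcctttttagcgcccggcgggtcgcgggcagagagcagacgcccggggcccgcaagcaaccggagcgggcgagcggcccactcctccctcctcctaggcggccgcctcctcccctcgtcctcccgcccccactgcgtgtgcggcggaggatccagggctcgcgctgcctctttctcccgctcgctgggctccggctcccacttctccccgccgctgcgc
Adamts3 holds 41 CpG dinucleotides and is 77.3% G or C, and Mmp14 holds 10 and is 56.0% G or C, while Mmp3 holds 1 and is 40% G or C. Among the 27 windows of 25 family genes at 1 CPM or more, TGACTCA stood in 2 (Adam19 and Adam1b, 7.41%), TATAAA in 1 (Adamts1, 3.70%) and both in 0. Of the windows of all genes at that level 3.36%, 6.75% and 0.383% held them. In all, 57 windows of 52 of the 83 genes were in the table. It had none for Mmp2, Mmp9, Mmp16, Mmp17 and Mmp19, so Mmp11 was the only secreted MMP with a window among the genes at 1 CPM or more. Most of the 25 genes are ADAM or ADAMTS genes, so the contrast with the silent block also sets different families side by side. The 27 windows of genes at 1 CPM or more had a median of 22 CpGs (range 2 to 46, with 2 in Adam1b and 4 in Adam1a) and 66.3% G or C, and the 18 windows of genes with 0 reads had a median of 1 CpG (range 0 to 7) and 41.2% G or C. The same contrast holds over the genome: windows of all genes at 1 CPM or more had a median of 20 CpGs, and those of all genes at 0 in both libraries had 2.

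**Figure D2:**
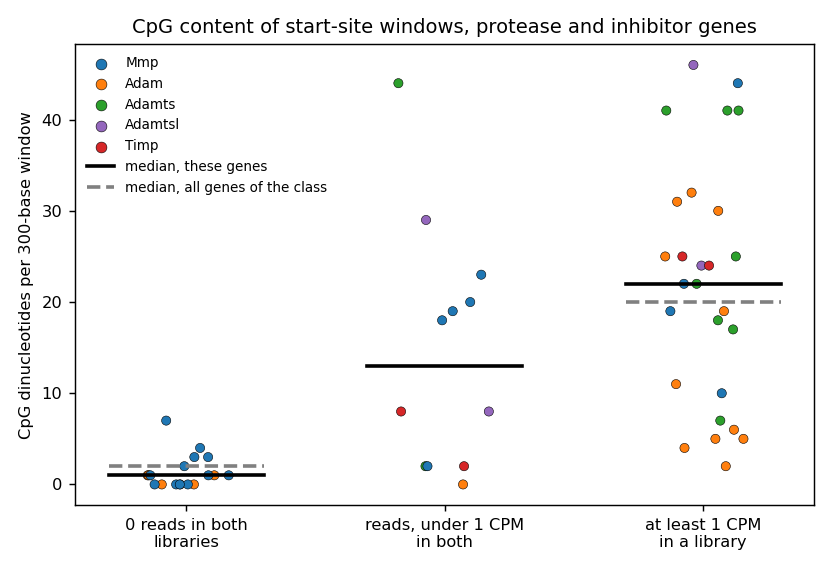
CpG dinucleotides in the 300-base start-site window (vertical axis) of 52 protease and inhibitor genes, by expression class; each point is a window, black bars are medians of these genes and dashed grey bars medians of all genes of the class. The 18 windows of silent genes hold 0 to 7 CpGs, and those of genes at 1 CPM or more a median of 22.

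The summed level of the 16 secreted MMPs was 56.5 CPM in NPCs and 24.9 CPM in neurons. Mmp9 supplied 25.4 and 0.922 CPM of these sums and so most of their difference, and 10 of the 16 genes had 0 reads in both libraries.

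MMPs anchored in the membrane split by library. Their summed level was 399.0 CPM in NPCs and 445.6 CPM in neurons. Mmp14, which encodes MT1-MMP, the activator of pro-MMP2, was at 117 CPM in NPCs and 68.5 CPM in neurons (1.71-fold toward NPCs, interval 1.60 to 1.81). Mmp15, or MT2-MMP, was at 87.5 and 55.7 CPM (1.57-fold toward NPCs, interval 1.46 to 1.68). Mmp17, Mmp24 and Mmp16 were higher in the neuron library. Mmp17, or MT4-MMP, which is tethered by a lipid anchor, was at 56.9 CPM in NPCs and 140.1 CPM in neurons (2.46-fold toward neurons, interval 2.31 to 2.62). Its log2 ratio of 1.28 with 1 CPM added placed it at rank 201 from the neuron end. Microglia markers were higher in the same library as Mmp17, Adamts2 and Adamts3, and their part in these differences was not tested. Mmp24, or MT5-MMP, known as a brain MMP that cuts N-cadherin, was at 87.0 and 123 CPM (1.41-fold, 1.34 to 1.495). Mmp16, or MT3-MMP, was at 49.4 and 57.2 CPM (1.16-fold, 1.07 to 1.25). Mmp25, the other lipid-anchored form, had 17 reads in NPCs and 0 in neurons and was at least 4.79-fold higher in NPCs against that floor (the counting interval starts at 3.49), in the opposite direction to Mmp17. Mmp23 was below 1 CPM in both (0.704 and 0.922).

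Expressed per kilobase of transcript, so that genes can be set side by side, the make-up of the membrane MMP group shifted between the libraries. Mmp14 took 38.9% of the group's CPM per kilobase in NPCs and 22.4% in neurons, and Mmp15 18.4% and 11.5%. Mmp17 took 9.57% and 23.1%, and Mmp24 21.8% and 30.3%. Mmp16 was near level at 10.6% and 12.1%. In plain reads, Mmp14 was 29.3% of the group in NPCs (28.4 to 30.2) and 15.4% in neurons (14.7 to 16.1), and Mmp17 was 14.3% (13.6 to 14.9) and 31.4% (30.5 to 32.3). The leading gene per kilobase was Mmp14 in NPCs (36.1 CPM per kilobase) and Mmp24 in neurons (28.6 CPM per kilobase). In plain reads Mmp14 also led in NPCs, but Mmp17 led in neurons, where Mmp24 was 27.6% (26.8 to 28.5). The order in neurons thus depends on the transcript lengths used.

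**Figure D3:**
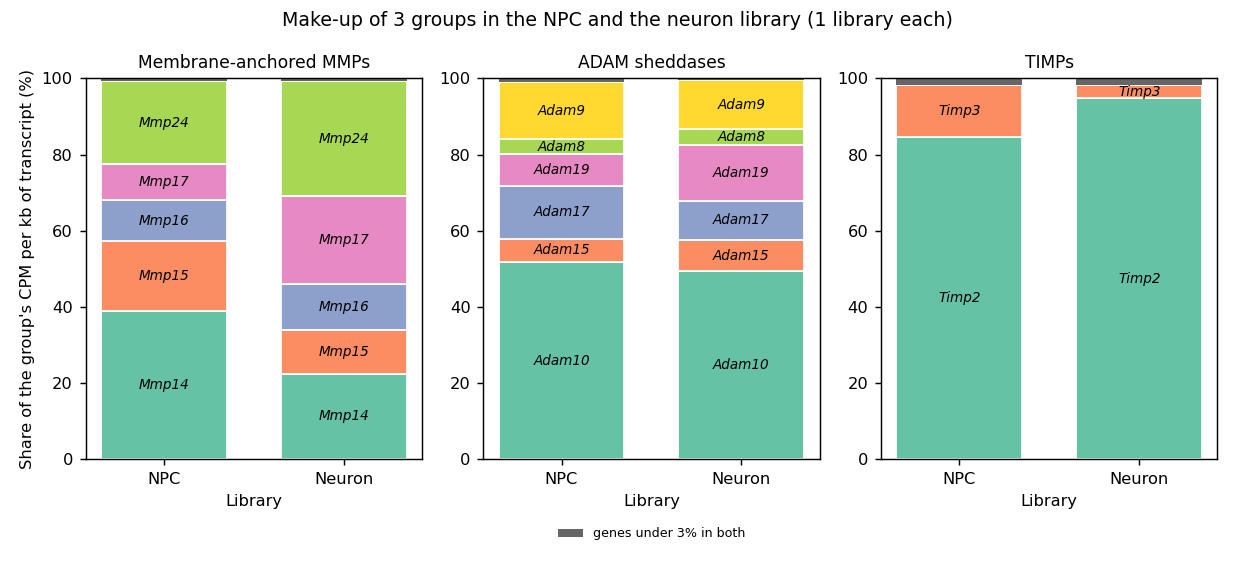
Share of each gene in the CPM per kilobase of transcript (vertical axis, %) of the membrane-anchored MMPs, the ADAM sheddases and the TIMPs, in the NPC and the neuron library. Mmp14 takes 38.9% in NPCs and 22.4% in neurons, Mmp17 9.57% and 23.1%, and Adam10 51.7% and 49.3% of the sheddases.

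The inhibitors differed in opposite directions. Timp2, which blocks many MMPs and also takes part in the activation of pro-MMP2 by MT1-MMP, was at 77.1 CPM in NPCs and 120.7 CPM in neurons (1.56-fold toward neurons, interval 1.48 to 1.66). Timp3, which binds to the matrix and inhibits ADAM17 as well as MMPs, was at 15.8 and 5.84 CPM (2.70-fold toward NPCs, interval 2.22 to 3.30). Timp3 is also made by vascular mural cells. Most of their markers, though not Acta2 and Tagln, were higher in the same library, and the part of these cells was not tested. Per kilobase Timp2 was 84.7% of all TIMP transcripts in NPCs and 94.7% in neurons. Timp1 had 7 reads in NPCs and 9 in neurons, and Timp4 had 20 and 15, so that neither reached 1 CPM and no difference was detectable. In the annotation Timp1, Timp3 and Timp4 lie inside the synapsin genes Syn1, Syn3 and Syn2 on the opposite strand, and it is not known whether reads were counted by strand. Syn3 was at 37.3 CPM in NPCs and 105.0 CPM in neurons, opposite in direction to Timp3.

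**Figure D4:**
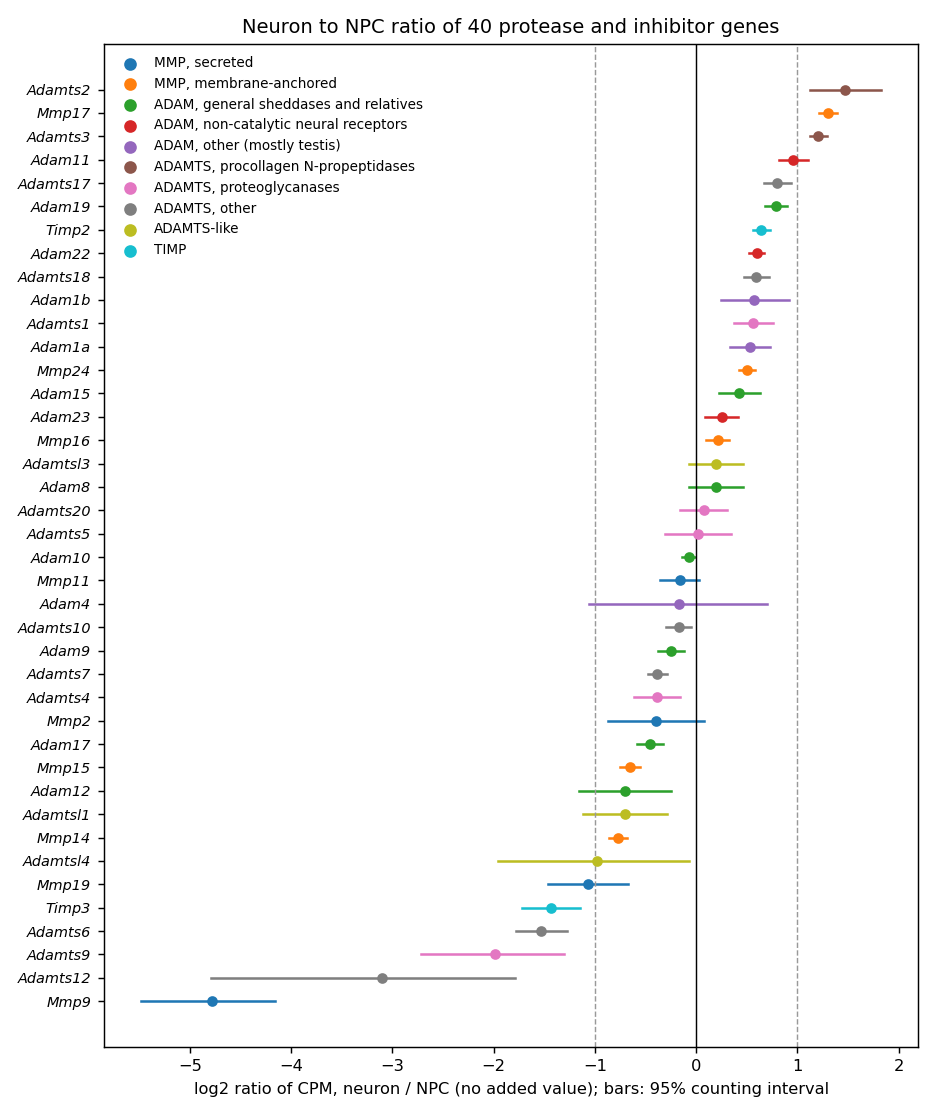
Ratio of neuron to NPC on a log2 axis for the 40 genes at 1 CPM or more, without an added value, with 95% counting intervals as bars and colour by role; dashed lines mark 2-fold. Adamts2, Mmp17 and Adamts3 lie beyond 2-fold at the neuron side, and Mmp9 lies farthest at the NPC side.

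The ADAM sheddases were close to level in sum, with 340.2 CPM in NPCs and 344.7 CPM in neurons for 9 genes. Of the 7 at 1 CPM or more, 0 were at least 2-fold apart in either direction. With 6.73% of all genes past 2-fold toward NPCs and 3.85% toward neurons, 0 of 7 does not set them apart. Scaled by total reads, the sum was the higher one in NPCs. Adam10, the main sheddase of Notch and N-cadherin, was the gene of highest level per kilobase among all 83 in both libraries (39.0 and 37.0 CPM per kilobase). In neurons Adamts3 was nearly level with it at 36.7 CPM per kilobase, so the order there is not settled. Adam10 was at 179.1 CPM in NPCs and 170.1 CPM in neurons, 1.05-fold higher in NPCs (interval 1.009 to 1.10). Adam17, which releases TNF and EGF receptor ligands, was at 47.1 and 34.4 CPM (1.37-fold toward NPCs, interval 1.25 to 1.498). Adam9 was at 46.4 and 39.1 CPM (1.19-fold, 1.09 to 1.30) and Adam12, known from muscle and mesenchyme, at 4.49 and 2.77 CPM (1.62-fold, 1.19 to 2.24), both higher in NPCs. Adam19, which processes neuregulin, was the sheddase that leaned most to neurons, at 40.4 and 69.8 CPM (1.73-fold, 1.60 to 1.87). Its share of the group's reads was 11.9% in NPCs (11.2 to 12.6) and 20.2% in neurons (19.4 to 21.2). Adam15 was at 13.8 and 18.6 CPM (1.35-fold toward neurons, interval 1.17 to 1.55). Adam8, which leukocytes and microglia express, was at 8.75 and 10.01 CPM (1.14-fold, 0.949 to 1.38), with no detectable difference. Microglia markers summed to 4.32-fold more in the neuron library, and the part of these cells in the Adam8 level was not tested. Adam28 and Adam33 had at most 2 reads in a library.

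All 3 ADAMs that have lost the catalytic site and act as neural receptors were higher in neurons. Adam11 was at 23.9 CPM in NPCs and 46.6 CPM in neurons (1.94-fold, 1.76 to 2.15). Adam22, a receptor of the secreted epilepsy-linked protein LGI1 at synapses, was at 96.9 and 146.7 CPM (1.51-fold, 1.44 to 1.59). Adam23, another LGI1 receptor, was at 23.2 and 27.7 CPM (1.19-fold, 1.07 to 1.33). None of the 3 reached 2-fold with 1 CPM added, where their log2 ratios were 0.93, 0.59 and 0.24. Their summed level was 144.1 CPM in NPCs and 221.0 CPM in neurons. Among 12 genes for LGI ligands and for the scaffolds and channels found with these receptors, 4 of the 9 at 1 CPM or more reached 2-fold toward neurons (3.85% of all genes did) and 0 toward NPCs, and the list median was 0.71 (log2). With 5 CPM added, 2 of the 4 remained past 2-fold and Lgi1 did not (log2 ratio 0.89). Dlg2, a synaptic scaffold, was at 30.9 and 92.8 CPM (3.002-fold, 2.77 to 3.26). Lgi1 itself had 4.75 and 13.1 CPM (2.76-fold, 2.23 to 3.42). Kcna1, a potassium channel gene, had 26.3 and 69.7 CPM (2.65-fold, 2.42 to 2.90).

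The remaining 20 ADAMs are mostly known from testis and sperm. Of these, 12 had 0 reads in both libraries and 15 had at most 3 reads in each. Adam1a and Adam1b, which form a pair of adjacent similar genes, were 2 of the 3 that reached 1 CPM, with Adam1a at 13.9 and 20.1 CPM (1.45-fold toward neurons, interval 1.26 to 1.66) and Adam1b at 5.005 and 7.46 CPM (1.49-fold, 1.18 to 1.88). Exons of Adam1a overlap those of Mapkapk5 on the same strand in the annotation, so the assignment of its reads is uncertain. Adam4, the other, was at 1.04 and 0.922 CPM, and it lies inside Cox16 on the same strand. Adam21 had 23 and 18 reads and Adam3 had 0 and 4 reads.

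The ADAMTS procollagen N-propeptidases were the role with the largest summed difference toward neurons, 67.2 CPM in NPCs and 155.0 CPM in neurons, or 2.31-fold. Adamts3, which also cuts and inactivates reelin, supplied most of it. It had 1688 reads in NPCs and 3289 in neurons, or 62.6 and 144.4 CPM, and was 2.31-fold higher in neurons (interval 2.17 to 2.45). It made up 93.2% of the reads of this role in NPCs (91.9 to 94.3) and 93.1% in neurons (92.2 to 93.9). Adamts2, another reelin-cleaving member, was at 3.63 and 10.1 CPM (2.78-fold toward neurons, interval 2.18 to 3.56). Adamts14, the third N-propeptidase, stayed below 1 CPM, at 0.964 and 0.571. Reln was at 95.8 and 434.2 CPM (4.53-fold toward neurons, interval 4.34 to 4.74). The fibrillar collagen genes looked up were higher in NPCs. Col2a1 was at 73.3 and 15.8 CPM, Col5a1 at 18.5 and 4.21 CPM and Col3a1 at 16.9 and 0.790 CPM. Col1a2 was at 4.71 and 0.527 CPM and Col1a1 at 1.89 and 0.308 CPM. Markers of Cajal-Retzius cells, which make reelin, summed to 29.2 and 47.5 CPM, most of the NPC sum being Cxcr4 at 25.8 and 22.9 CPM. The other 4 were at 0.148 to 2.04 CPM in NPCs and 1.76 to 16.5 CPM in neurons, each at least 2-fold higher in neurons. The part of these cells in the differences was not tested.

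The ADAMTS proteoglycanases, which cut aggrecan, versican and their relatives, were nearly level in sum at 53.8 CPM in NPCs and 54.6 CPM in neurons. Adamts1 was at 14.9 and 22.1 CPM (1.48-fold toward neurons, interval 1.30 to 1.69), and Adamts4 at 15.7 and 12.03 CPM (1.31-fold toward NPCs, interval 1.12 to 1.53). Adamts5 (6.41 and 6.50 CPM) and Adamts20 (11.97 and 12.6 CPM) did not differ beyond counting error. The directions of Adamts5 and of the summed level turned when total reads set the scale. Adamts9, the gene of this role at least 2-fold apart, had 103 and 22 reads, or 3.82 and 0.966 CPM (3.95-fold toward NPCs, interval 2.48 to 6.58). Adamts8 and Adamts15 stayed below 1 CPM. Of the proteoglycan targets, Vcan was at 308.3 and 387.8 CPM and Ncan at 876.6 and 916.2 CPM, an order that also turned with total reads.

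Other ADAMTS genes went both ways. Adamts6, which cleaves fibrillin and other microfibril proteins, was at 21.4 CPM in NPCs and 7.42 CPM in neurons (2.88-fold toward NPCs, interval 2.43 to 3.44). Its close relative Adamts10 was at 47.9 and 42.4 CPM, near level (1.128-fold toward NPCs, interval 1.04 to 1.23). Adamts12 had 51 reads in NPCs and 5 in neurons, or 1.89 and 0.220 CPM (8.599-fold toward NPCs, interval 3.46 to 27.7). Its relative Adamts7, which also cleaves the matrix protein COMP, was at 91.8 and 70.4 CPM (1.30-fold toward NPCs, interval 1.22 to 1.39). Adamts17 and Adamts18 leaned to neurons, at 29.4 and 51.3 CPM (1.74-fold, 1.59 to 1.91) and at 36.2 and 54.6 CPM (1.51-fold, 1.39 to 1.64). Below 1 CPM, Adamts16 had 17 reads in NPCs and 1 in neurons, a ratio of 14.2 with a counting interval of 2.25 to 600.1, and Adamts19 had 19 and 3 reads (5.33-fold toward NPCs, interval 1.57 to 28.2). Most pericyte and endothelial markers were higher in the NPC library like Adamts6, Adamts9, Adamts12, Adamts16 and Adamts19, and their part was not tested. Adamts13, the von Willebrand factor protease, had 1 read in each library.

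ADAMTS-like proteins share the ancillary domains of ADAMTS proteins but have no protease domain. Their summed level was 16.7 CPM in NPCs and 14.6 CPM in neurons. Of the 3 at 1 CPM or more, 0 reached 2-fold with 1 CPM added. Of all genes, 6.73% did so toward NPCs and 3.85% toward neurons, so 0 of 3 does not set them apart. Adamtsl1 was at 5.49 and 3.38 CPM (1.62-fold toward NPCs, interval 1.22 to 2.17) and Adamtsl4 at 1.30 and 0.659 CPM (1.97-fold, 1.05 to 3.88). Adamtsl3 was at 8.97 and 10.3 CPM (1.14-fold toward neurons, interval 0.952 to 1.38). Below 1 CPM, Adamtsl2 had 24 and 7 reads (2.89-fold toward NPCs, interval 1.21 to 7.96), and Adamtsl5 had 1 and 0 reads.

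**Figure D5:**
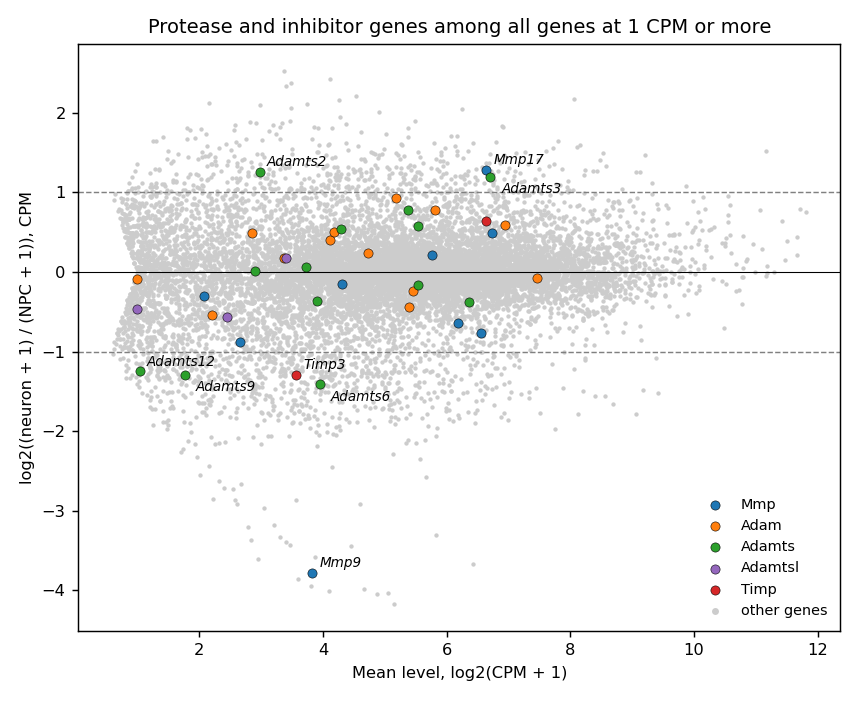
Log2 ratio of neuron to NPC with 1 CPM added (vertical axis) against mean level, log2(CPM + 1) (horizontal axis), for 12693 genes (grey) and the 40 protease and inhibitor genes (coloured by family); genes at least 2-fold apart are named. Most coloured points lie between the dashed 2-fold lines, and Mmp9 lies at -3.78.

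Genes that act with these proteases were taken from fixed lists. Of 18 activators and cofactors, 13 were at 1 CPM or more. Of these, 2 reached 2-fold toward NPCs (6.73% of all genes did) and 0 toward neurons (3.85% of all genes). The list median was -0.06 (log2). The NPC count was 0 with 5 CPM added and 1 with a minimum of 10 CPM. Both were partners of sheddases: Rhbdf1, an iRhom that carries ADAM17 to the surface, was at 13.0 and 4.65 CPM (2.80-fold toward NPCs, interval 2.24 to 3.51), and Tspan33, a tetraspanin that binds ADAM10, had 94 and 23 reads (3.45-fold, 2.17 to 5.71). Rhbdf2, the other iRhom, was at 2.85 and 0.966 CPM (2.95-fold toward NPCs, interval 1.82 to 4.99), just under 2-fold with 1 CPM added. Tetraspanins Tspan5 (106.8 and 139.2 CPM) and Tspan14 (138.4 and 147.0 CPM), which also escort ADAM10, and the proprotein convertase Furin (41.1 and 37.0 CPM) lay within 2-fold. Of the 11 genes for other inhibitors and clearance at 1 CPM or more, 2 reached 2-fold in each direction. Of all genes, 6.73% did so toward NPCs and 3.85% toward neurons. The list median was -0.42 (log2). The neuron count was 1 with scaling by total reads or upper quartile, and both counts were 1 with 5 CPM added. Serpinh1, which encodes a collagen chaperone of the serpin family, was at 112.5 and 38.5 CPM (2.93-fold toward NPCs, interval 2.71 to 3.16) and Wfikkn2 at 3.37 and 1.05 CPM (3.20-fold, 2.02 to 5.25). The testican gene Spock1 was at 46.8 and 106.4 CPM (2.27-fold toward neurons, interval 2.12 to 2.44), its relative Spock2 at 20.2 and 41.7 CPM (2.07-fold), and Reck, a membrane inhibitor of MMPs, at 19.4 and 12.2 CPM.

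Most matrix substrates were higher in NPCs. Of 24 matrix substrates at 1 CPM or more, 15 reached 2-fold toward NPCs (6.73% of all genes did) and 1 toward neurons (3.85% of all genes). The list median was -1.49 (log2). Nid1, Lama4 and Col4a1, all basement membrane genes, had the largest log2 differences of the list with 1 CPM added. They were at 66.1 and 2.72 CPM (24.3-fold), 26.1 and 1.27 CPM (20.5-fold) and 157.9 and 11.5 CPM (13.7-fold). By the plain ratio Col3a1 (21.4-fold) lay between Nid1 and Lama4. Most pericyte and endothelial markers were higher in the same library, and their part was not tested. Of 22 neural substrates of shedding and cleavage, 3 reached 2-fold toward NPCs and 1 toward neurons. The shares of all genes were 6.73% and 3.85%, and the list median was -0.06 (log2). The receptor gene Notch1 was at 342.3 and 86.2 CPM and Notch2 at 198.8 and 54.3 CPM (3.97-fold and 3.66-fold toward NPCs), and the Notch ligand gene Jag1 at 19.5 and 8.56 CPM, next to 1.05-fold for their sheddase gene Adam10. The single substrate at least 2-fold higher in neurons was Reln, and 1 gene of 22 does not set this list apart from all genes. Among the gamma-secretase genes, which act after the sheddase, Ncstn was at 145.6 and 109.6 CPM (1.33-fold toward NPCs), and Aph1b at 82.9 and 111.0 CPM (1.34-fold) and Aph1c at 23.2 and 29.6 CPM (1.28-fold) were higher in neurons.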

How the data were processed

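The authors deposited 1 table per library with a signal per gene symbol. Build mm9 and the tools TopHat 1.2.0, CASAVA 1.9, SAMtools 0.1.18 and edgeR are listed, per the submitters' processing notes. What each tool did, the annotation, strand use and multiply aligned reads: not given in the sources used here. The deposited signal is a whole multiple of 1 step per library (0.952727 for NPCs, 1.12797 for neurons): dividing by it gave whole reads within 0.05 for 100% of values in both, with values under 0.01 taken as 0. Both libraries were divided by the mean of their sums and multiplied by 1000000 to give CPM, which keeps the authors' scaling. The counts of genes past 2-fold use log2(CPM + 1), which understates differences of low genes, and a minimum of 1 CPM in a library. A count test on the recovered reads could not be fitted with 1 library per group, so there is no p-value.

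The genes, their roles and the lists were chosen with earlier results of these data known. Each gene at 1 CPM or more is named. Below that level, genes with at least 10 reads in a library and a counting interval wholly above 1 are named, and the others named with reads or levels were chosen after their values were seen. From each list up to 3 genes with the largest log2 ratio are named, and other list genes were chosen after their values were seen. The summary of the gamma-secretase list is not reported here. Marker lists for intermediate progenitors (4 of 5 at least 2-fold higher in NPCs), interneurons, choroid plexus and red blood cells are set beside no result, and their part was not tested; their summed levels were 2026 and 829.9, 296.7 and 212.8, 1.63 and 0.616, and 62.7 and 59.0 CPM in NPCs and neurons. Transcript lengths are the longest protein-coding transcript of GENCODE vM21, and overlaps and neighbours are from GRCm38, so no coordinates from mm9 are printed. Calculations used Python 3.11.15, scipy 1.17.1 and, for scaling factors, edgeR 4.0.16 in R 4.3.3, and were tested on simulated data.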

Additional observations from a re-analysis of the deposited data

How the results depend on the processing

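With 5 CPM added in place of 1, the genes at least 2-fold higher in NPCs numbered 2 in place of 5 (Mmp9 and Adamts6 remained) and those higher in neurons 2 in place of 3 (Mmp17 and Adamts3 remained). With a minimum of 10 CPM, 3 were higher in NPCs, because Adamts9 and Adamts12 no longer entered. At a 1.5-fold threshold 8 were higher in each library. With 0.5 CPM added, with no minimum, and with scaling by total reads, TMM, upper quartile or median of ratios, the same 5 and 3 genes were called. The median log2 ratio of these genes ran from -0.08 with total reads to 0.19 with a minimum of 10 CPM, so its sign is not settled. Scaling moved the median of all genes by at most 0.069 from 0 (total reads), and of the genes given with values in the report Adamts5 and Ncan changed direction, both under that scaling. The summed levels of the ADAM sheddases and of the ADAMTS proteoglycanases also changed direction with total reads. List counts past 2-fold that moved by over 1.5 times stand beside their results, except that 1 inhibitor gene in place of 2 was past 2-fold toward NPCs with a minimum of 10 CPM. No paired analysis was possible because each group has 1 library. Depth limits genes under about 3 reads, 0.111 CPM in NPCs and 0.132 CPM in neurons.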
